A study of Homo sapiens with 12 samples.

Results

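The HLA class I and antigen processing genes described here are HLA-B, HLA-C, HLA-E, HLA-F, B2M, TAP1, TAP2, PSMB8 and PSMB9. They are 9 of the 62754 genes in the count table, were chosen by name with earlier results of these data known, and were matched by Ensembl identifier. RNA was measured in PC9, a lung adenocarcinoma cell line with a mutant EGFR, here grown from a subclone, by sequencing polyadenylated transcripts of 12 libraries in 4 groups of 3 cultures. Untreated WT cells had an intact TDP1 gene, which encodes a phosphodiesterase that removes trapped topoisomerase I from DNA. DTC (drug-tolerant cells) were TDP1 WT cells kept for 7 days in 1 µM erlotinib, which blocks the kinase activity of EGFR, and DTEC (drug-tolerant expanded cells) were TDP1 WT cells kept for 28 days at that dose. KO cells were untreated and came from the TDP1 knockout line KO2, the 1 knockout line sampled. All groups were of batch 1, and the labels give no time in culture for the untreated cells. Cultures were split from a shared flask and then grown apart, so p-values measure the spread between cultures of the same line. With 1 knockout line, loss of TDP1 and other differences between the KO2 and WT lines cannot be told apart.

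Class I molecules carry peptides from inside the cell to its surface, where CD8 T cells and natural killer cells inspect them. The proteasome cuts proteins into peptides, a transporter made of TAP1 and TAP2 moves the peptides into the endoplasmic reticulum, and there they are loaded onto a heavy chain paired with beta-2 microglobulin, the product of B2M. Interferons raise most of these genes and bring in proteasome subunits that replace the constitutive ones: PSMB8 takes the place of PSMB5, PSMB9 of PSMB6 and PSMB10 of PSMB7.

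Library totals ran from 25572691 to 38373679 estimated counts. TDP1 had 26.3 ± 1.60 CPM (counts scaled to effective library size; mean ± SD, n = 3) in untreated WT against 10.8 ± 0.647 CPM in the KO line, a fall in the direction of the label (log2 -1.29, SE 0.11, adjusted p 1.30e-05; edgeR quasi-likelihood test). TDP1 also fell in DTC, to 14.0 ± 1.55 CPM (adjusted p 3.56e-06). Of 7 epithelial markers 6 were above 3 counts in untreated WT, while NKX2-1, a lung lineage factor, was at or under 3 counts outside DTC. Mitochondrial genes took 4.43% to 5.41% of counts in DTC, 2.504% to 2.772% in untreated WT, 1.82% to 2.38% in DTEC and 2.59% to 2.78% in KO, and the part of this in the results was not tested.

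All 9 genes passed the filter on low counts. B2M (ENSG00000166710) lies on chromosome 15 at 44711487 to 44718877, and the other 8 genes lie on chromosome 6 (GRCh38, GENCODE 29). HLA-F (ENSG00000204642, 29722775 to 29738528), HLA-E (ENSG00000204592, 30489467 to 30494205), HLA-C (ENSG00000204525, 31268749 to 31272130) and HLA-B (ENSG00000234745, 31269491 to 31357188) follow each other along it, although the HLA-B model of that release also runs across HLA-C and shares 35 exonic bases with it. TAP2 (ENSG00000204267, 32821833 to 32838780), PSMB8 (ENSG00000204264, 32840717 to 32844703), TAP1 (ENSG00000168394, 32845209 to 32853978) and PSMB9 (ENSG00000240065, 32844136 to 32859585) form a tight cluster. None of the 12 deposited values of HLA-B, HLA-C, HLA-E or TAP2 was a whole number, so the counting had divided reads between these genes and other features. All 12 were whole for HLA-F, B2M and PSMB8, 11 for TAP1 and 9 for PSMB9. Class I genes vary greatly between people, and how reads from the alleles of PC9 were assigned to the reference genes was not tested. PSMB8 and PSMB9 share 139 exonic bases on opposite strands, and whether the counting used strand is not given in the sources used here.

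Promoter sequences are shown because 8 of the 9 genes rose together in DTC. RefSeq windows of 300 bases around the start (GRCh38.p14) were at hand for 8 genes, all but HLA-E. Part of the 250 bases before the start is given for HLA-B, HLA-C, B2M, PSMB9 and TAP2, the gene that moved the other way. It is the longest stretch that no GENCODE 29 exon on the strand of the gene covers, written 5′ to 3′ on that strand. The stretch of PSMB9 begins inside the TAP1 gene, which is on the opposite strand and ends at 32853978. Capitals mark matches on either strand to the core of the interferon response element bound by IRF factors (GAAA, 2 bases of any kind, GAAA) or to a loose NF-kB site (GGG, 5 bases of any kind, CC), which may overlap.
HLA-B, chr6:31357189-31357429, reverse strand: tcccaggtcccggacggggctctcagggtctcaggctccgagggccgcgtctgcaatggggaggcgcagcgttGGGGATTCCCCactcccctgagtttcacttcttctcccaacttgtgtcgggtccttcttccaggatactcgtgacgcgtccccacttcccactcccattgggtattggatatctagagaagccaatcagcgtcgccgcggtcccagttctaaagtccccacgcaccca
HLA-C, chr6:31272131-31272342, reverse strand: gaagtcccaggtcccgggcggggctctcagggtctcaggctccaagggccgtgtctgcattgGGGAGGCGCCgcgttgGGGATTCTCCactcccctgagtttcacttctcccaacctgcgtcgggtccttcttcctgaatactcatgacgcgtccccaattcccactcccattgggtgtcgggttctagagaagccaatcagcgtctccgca
B2M, chr15:44711267-44711486, forward strand: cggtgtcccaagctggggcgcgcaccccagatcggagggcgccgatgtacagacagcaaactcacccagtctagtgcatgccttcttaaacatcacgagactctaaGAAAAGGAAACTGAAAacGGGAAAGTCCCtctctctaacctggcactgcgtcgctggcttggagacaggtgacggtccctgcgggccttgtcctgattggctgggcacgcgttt
PSMB9, chr6:32853942-32854147, forward strand: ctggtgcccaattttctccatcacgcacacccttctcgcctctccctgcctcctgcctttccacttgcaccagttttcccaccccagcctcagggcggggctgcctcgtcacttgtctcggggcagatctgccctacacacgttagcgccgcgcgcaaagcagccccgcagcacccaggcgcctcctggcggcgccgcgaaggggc
TAP2, chr6:32838823-32838989, reverse strand: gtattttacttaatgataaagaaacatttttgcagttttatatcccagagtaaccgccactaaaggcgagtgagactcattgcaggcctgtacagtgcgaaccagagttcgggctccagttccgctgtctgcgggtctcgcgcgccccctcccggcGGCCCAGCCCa
Within the stretches shown, B2M matches both patterns side by side, HLA-B and HLA-C match only the NF-kB form, and PSMB9 matches neither. A response element that differs from the pattern by a base would go unmatched, so a stretch without a match may still hold such an element. The capitals of TAP2 are an NF-kB match, and its interferon element lies outside the stretch shown. Over whole windows, the interferon element was found in 5 of the 8 genes (HLA-F, B2M, TAP1, TAP2 and a second start of PSMB8), against 3.57% of 35116 windows. A gene counted if any of its windows matched, and TAP1 and PSMB8 had 2 each, whereas the shares are per window. The NF-kB form was found in 5 of the 8 (HLA-B, HLA-C, B2M, TAP1 and TAP2), against 58.7%. CCAAT, the Y box, was found in all of the 8 but TAP2 and PSMB8 and in 34.6% of windows. TAP1 and PSMB9 are read in opposite directions from starts 488 bases apart. The interferon matches of TAP1, at bases -134 to -119 relative to its start, lie between these starts and outside the PSMB9 window. A match describes letters in a window and does not show that a factor binds.

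**Figure D1:**
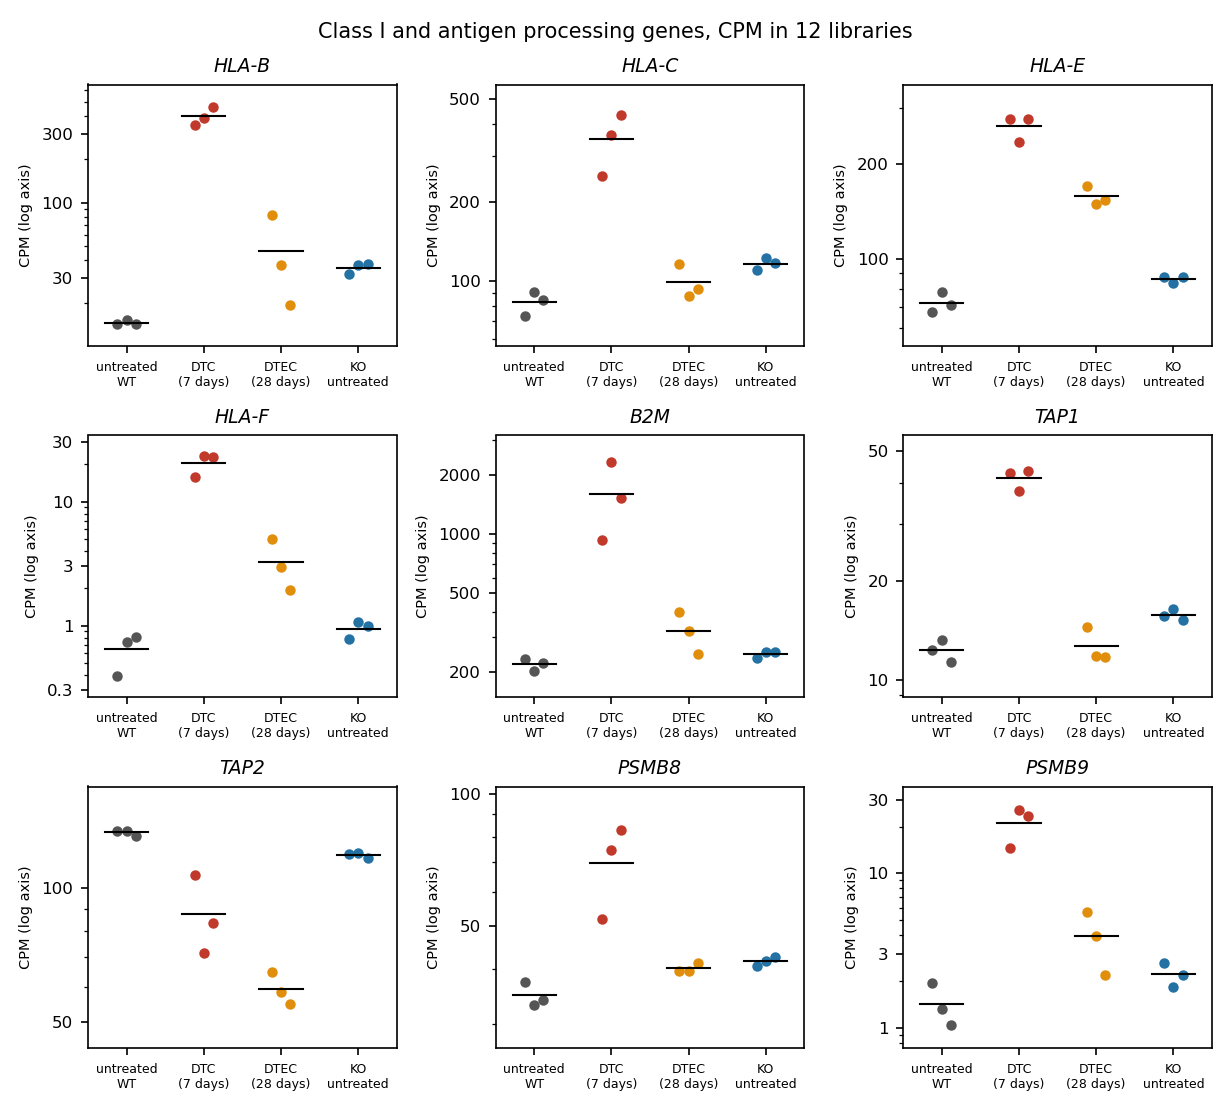
CPM of the 9 genes in each of the 12 libraries (points; vertical log axis) with group means (lines), by group. Every gene but TAP2 was highest in the 3 DTC libraries, and TAP2 was highest in untreated WT.

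After 7 days of erlotinib, 8 of the 9 genes had risen over untreated WT and 1, TAP2, had fallen. Of all 17115 genes tested, 67.3% were called, 34% higher and 33.3% lower (edgeR quasi-likelihood test, adjusted p under 0.05). The median log2 fold change was 2.07 over the 9 genes and 0.06 over all genes tested. The 9 genes took 0.0512% to 0.0516% of all counts in untreated WT and 0.235% to 0.408% in DTC. In bulk RNA, a smaller number of cells of a kind and less RNA in each cannot be told apart.

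Among the heavy chains, HLA-B and HLA-F rose most. HLA-B, a classical heavy chain that presents to CD8 T cells, had 14.3, 15.2 and 14.4 CPM in the 3 untreated WT libraries against 345, 389 and 462 CPM in DTC. Every DTC library was far above every untreated one, and the fitted rise was 27.2-fold (log2 4.77, SE 0.43, adjusted p 1.51e-06). HLA-C, the other classical chain here and the main ligand of killer immunoglobulin-like receptors, had 73.6, 90.6 and 84.5 CPM untreated against 253, 363 and 432 CPM in DTC (log2 2.07, SE 0.17, adjusted p 1.08e-07). HLA-E, which displays leader peptides to the receptor CD94-NKG2A, had 67.8, 78.1 and 71.5 CPM untreated against 277, 235 and 277 CPM in DTC (log2 1.86, SE 0.10, adjusted p 1.80e-09). For neither gene did the groups overlap, and the DTC libraries of HLA-E lay closer together than those of HLA-C. HLA-F, a non-classical chain, had 0.388, 0.742 and 0.808 CPM untreated against 15.7, 23.2 and 23.0 CPM in DTC (log2 4.99, SE 0.35, adjusted p 3.17e-08). Its groups did not overlap either, but its untreated libraries held 13, 22 and 28 counts, so this rise starts from a low base. Because reads of HLA-B and HLA-C can be shared, their rows were also summed, a choice made after seeing the data. The sum was 97.6 ± 9.01 CPM untreated against 748 ± 148 CPM in DTC (log2 2.98, SE 0.20, adjusted p 1.16e-08).

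B2M, the light chain shared by all these molecules, had 232, 201 and 219.9 CPM untreated against 936, 2331 and 1514 CPM in DTC, a rise of 7.32-fold (log2 2.87, SE 0.27, adjusted p 9.93e-07). All DTC libraries were above all untreated ones, and they were spread widely among themselves, from lowest in replicate 1 to highest in replicate 2.

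The transporter genes went in opposite directions. TAP1 had 12.4, 13.2 and 11.4 CPM untreated against 42.9, 37.8 and 43.5 CPM in DTC (log2 1.75, SE 0.11, adjusted p 9.52e-09). TAP2 had 134, 135 and 131 CPM untreated against 107, 71.6 and 83.6 CPM in DTC (log2 -0.61, SE 0.12, adjusted p 0.000568). Neither gene had overlapping groups. The fall of TAP2 was lost as a call with library totals alone as the scale (log2 -0.26, adjusted p 0.0800), a scale that moves the median of all genes by 0.35. A readthrough gene, ENSG00000250264, shares 2064 exonic bases with TAP2 on its strand, and adding its counts, also decided after seeing the data, gave a similar fall (log2 -0.59, SE 0.12, adjusted p 0.000577).

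Both inducible proteasome subunits rose. PSMB9 had 1.94, 1.32 and 1.04 CPM untreated against 14.6, 25.8 and 23.4 CPM in DTC (log2 3.89, SE 0.34, adjusted p 3.15e-07). PSMB8 had 37.4, 33.2 and 34.0 CPM untreated against 52.0, 74.4 and 82.8 CPM in DTC (log2 1.00, SE 0.14, adjusted p 1.48e-05). In both, the 3 DTC libraries were above the 3 untreated ones, and replicate 1 was the lowest of the DTC libraries. PSMB8-AS1, a non-coding RNA that shares 618 exonic bases with PSMB8 on the opposite strand and was singled out after its values were seen, rose too, from 1.13 ± 0.298 to 4.77 ± 1.11 CPM (adjusted p 4.89e-06 by edgeR, n = 3).

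Markers of other cell types were read beside these rises. The summed level of 7 leukocyte markers was 19.0 to 22.4 CPM in DTC, against 1.59 to 2.12 CPM in untreated WT, 2.35 to 2.85 in KO and 2.79 to 4.14 in DTEC. In DTC it came mostly from CSF1R (10.7, 7.74 and 10.2 CPM) and ITGAM (10.8, 10.4 and 9.88 CPM). PTPRC, carried by all leukocytes, reached at most 0.147 CPM, CD3E was at or under 3 counts in every library and MS4A1 had 0 counts in all 12. The 5 fibroblast markers summed to 54.9 to 57.5 CPM in DTC, against 7.79 to 8.83 CPM in untreated WT, 13.2 to 14.8 in KO and 10.9 to 14.1 in DTEC, nearly all from COL1A1, with COL3A1 and DCN at or under 3 counts throughout. The 3 endothelial markers summed to 41.9 to 49.5, 58.5 to 61.4, 75.7 to 77.2 and 122 to 142 CPM in the same order, and the epithelial markers to 6293 to 7277, 10794 to 11395, 11479 to 12314 and 9276 to 12151 CPM. The part of other cell types in these results was not tested.

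**Figure D2:**
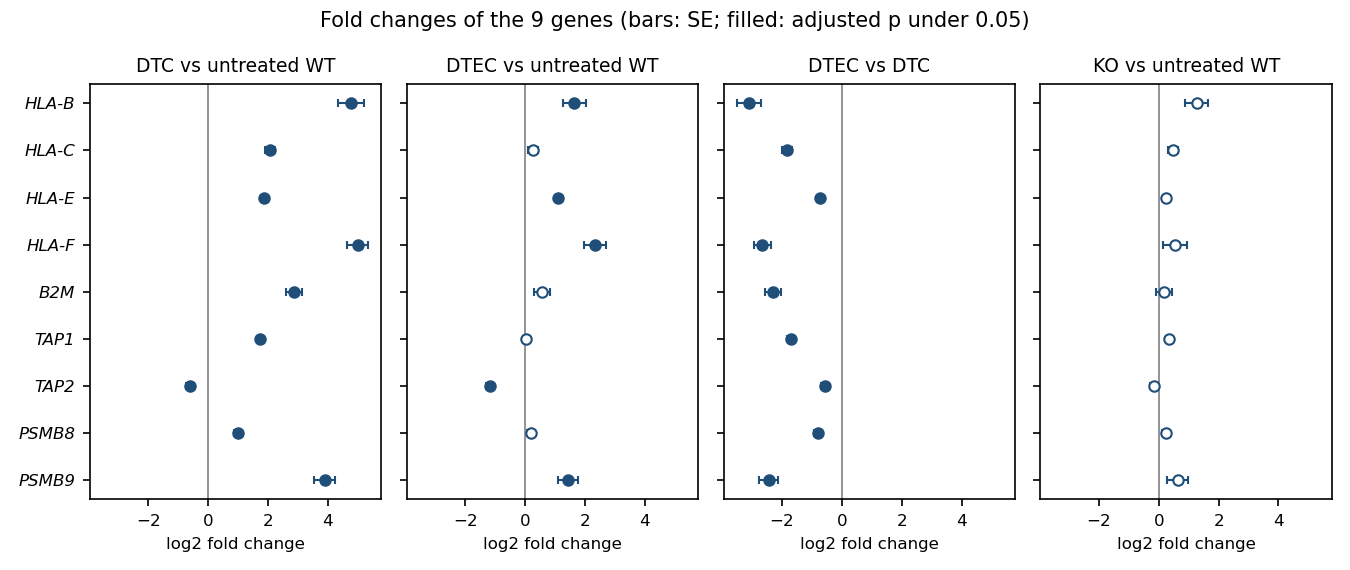
Log2 fold changes (horizontal axis) of the 9 genes in 4 comparisons, with bars for the SE. Filled points had an adjusted p under 0.05: 8 higher and 1 lower in DTC, 4 higher and 1 lower in DTEC, 9 lower in DTEC against DTC, and 0 in KO.

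After 28 days the picture was partial. Against untreated WT, 4 of the 9 genes were called higher in DTEC (HLA-B, HLA-E, HLA-F and PSMB9), 1 lower (TAP2) and 4 not at all, where 52.3% of all genes were called, 26% higher and 26.3% lower. The median log2 fold change was 0.56 over the 9 genes and 0.02 over all genes.

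HLA-E had 169.8, 149 and 153 CPM in DTEC (log2 1.12, SE 0.10, adjusted p 6.17e-07), with little spread between cultures. HLA-F had 4.99, 2.94 and 1.92 CPM (log2 2.34, SE 0.36, adjusted p 0.000103), and PSMB9 had 5.60, 3.93 and 2.20 CPM (log2 1.44, SE 0.34, adjusted p 0.00318). HLA-B had 82.2, 36.6 and 19.5 CPM (log2 1.65, SE 0.39, adjusted p 0.00391). All 4 genes were above every untreated WT library in every DTEC library, and in each of them replicate 1 was the highest. The summed rows of HLA-B and HLA-C changed less than HLA-B (log2 0.59, SE 0.18, adjusted p 0.0154). Without DTEC replicate 1, HLA-B was at log2 0.95 (adjusted p 0.00218), a fold change 1.63 times smaller.

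TAP2 had 64.7, 58.4 and 54.9 CPM in DTEC, 44.5% of its untreated mean (log2 -1.17, SE 0.13, adjusted p 3.70e-06), and every DTEC library was below every untreated one. TAP1 had 14.5, 11.8 and 11.7 CPM, overlapping untreated WT (log2 0.04, adjusted p 0.768), and its sign turned when DTEC replicate 1 or untreated WT replicate 3 was left out. B2M had 401, 319 and 245 CPM, above every untreated library but not called (log2 0.56, SE 0.26, adjusted p 0.0819). It was called in 8 of 19 alternatives, with adjusted p from 0.000227 to 0.245. HLA-C had 116, 87.7 and 93.2 CPM (log2 0.25, adjusted p 0.213) and overlapped untreated WT, and PSMB8 had 39.6, 39.6 and 41.2 CPM (log2 0.20, adjusted p 0.226) and did not. Leaving out DTC replicate 1, or scaling by library totals alone, added HLA-C, B2M and PSMB8 to the genes called higher, for 7 in place of 4.

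Set against DTC directly, all 9 genes were called lower in DTEC, where 55.4% of all genes were called and 26.6% were called lower. In none of the 9 did the groups overlap, a measure for which no share over all genes was computed. Of 58 tested pathway genes described below, 12 were higher and 18 lower without overlap. The median log2 fold change was -1.82 over the 9 genes and -0.01 over all genes. HLA-B differed most (log2 -3.11, SE 0.40, adjusted p 5.01e-05), with log2 -3.85 when DTEC replicate 1 was left out. HLA-F was lower by 2.65 on the log2 scale, PSMB9 by 2.45, B2M by 2.31, HLA-C by 1.82 and TAP1 by 1.70, with adjusted p from 3.38e-08 (TAP1) to 2.11e-05 (PSMB9). PSMB8 (log2 -0.80, adjusted p 0.000197), HLA-E (log2 -0.74, adjusted p 2.28e-05) and TAP2 (log2 -0.56, adjusted p 0.00174) differed least. Of the 9 genes, TAP2 alone was lower in DTC than untreated and lower again in DTEC.

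Without drug, the KO line had none of the 9 genes called by edgeR in the fit of all 12 libraries, where 4.31% of all genes were called, 2.76% higher and 1.55% lower. At an unadjusted p under 0.05 there were 4 of 9, against 16.6% of all genes, and DESeq2 called 1, HLA-B. The median log2 fold change was 0.36 over the 9 genes and -0.01 over all genes, and the 9 genes took 0.0609% to 0.0639% of counts.

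HLA-B had 31.7, 36.8 and 37.5 CPM in KO, all above the untreated libraries (log2 1.27, SE 0.39, adjusted p 0.103). Fitted with the 6 KO and untreated WT libraries alone it was called (log2 1.29, adjusted p 1.32e-06), as it was without DTEC replicate 1 (adjusted p 0.00177) or DTEC replicate 3 (adjusted p 0.00762). Across 19 alternatives the adjusted p of HLA-B spanned 1.07e-17 to 0.245. The summed rows of HLA-B and HLA-C were not called (log2 0.65, SE 0.18, adjusted p 0.0646). HLA-C had 109.7, 122 and 117 CPM (log2 0.49, SE 0.17, adjusted p 0.130) and TAP1 had 15.7, 16.4 and 15.2 CPM (log2 0.36, SE 0.11, adjusted p 0.102), both above every untreated library. HLA-E had 87.1, 83.6 and 87.4 CPM (log2 0.25, adjusted p 0.208), PSMB8 40.6, 41.7 and 42.5 CPM (log2 0.26, adjusted p 0.371) and B2M 233, 252 and 252 CPM (log2 0.18, adjusted p 0.788), again without overlap. These 6 genes were the ones called in the fit of the 6 libraries alone, with adjusted p from 1.32e-06 to 0.0364. That fit called 2656 genes in all, against 738 in the fit of all 12 libraries. Lack of overlap was common in KO: of 58 tested pathway genes described below, 15 were higher and 15 lower without overlap. Its share over all genes was not computed. HLA-F (0.772, 1.07 and 0.995 CPM, log2 0.56, adjusted p 0.537) and PSMB9 (2.63, 1.84 and 2.21 CPM, log2 0.64, adjusted p 0.404) overlapped untreated WT, and TAP2 had 119, 120.2 and 117 CPM, slightly below it (log2 -0.17, adjusted p 0.549).

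Levels of different genes can be compared only per length, here as CPM per kilobase of the principal transcript (mean ± SD, n = 3). In untreated WT the order was B2M (128 ± 9.36), HLA-C (54.0 ± 5.60), TAP2 (53.4 ± 0.823), PSMB8 (31.0 ± 1.97), HLA-E (27.9 ± 2.02), HLA-B (9.47 ± 0.329), TAP1 (4.16 ± 0.314), PSMB9 (1.83 ± 0.592) and HLA-F (0.395 ± 0.138). The libraries of HLA-C and TAP2 overlapped, as did those of PSMB8 and HLA-E. In DTC it was B2M (935 ± 411), HLA-B (258 ± 38.2), HLA-C (227 ± 58.9), HLA-E (101 ± 9.40), PSMB8 (62.1 ± 14.1), TAP2 (35.0 ± 7.21), PSMB9 (27.2 ± 7.54), TAP1 (14.0 ± 1.05) and HLA-F (12.6 ± 2.59). HLA-B, far below HLA-C in untreated cells, overlapped it in DTC, and so did PSMB9 with TAP2 and HLA-F with TAP1. In DTEC, B2M (189), HLA-C (64.4) and HLA-E (60.5) led and HLA-F (2.01) was last. In KO, B2M (144), HLA-C (75.7) and TAP2 (47.5) led, as in untreated WT.

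**Figure D3:**
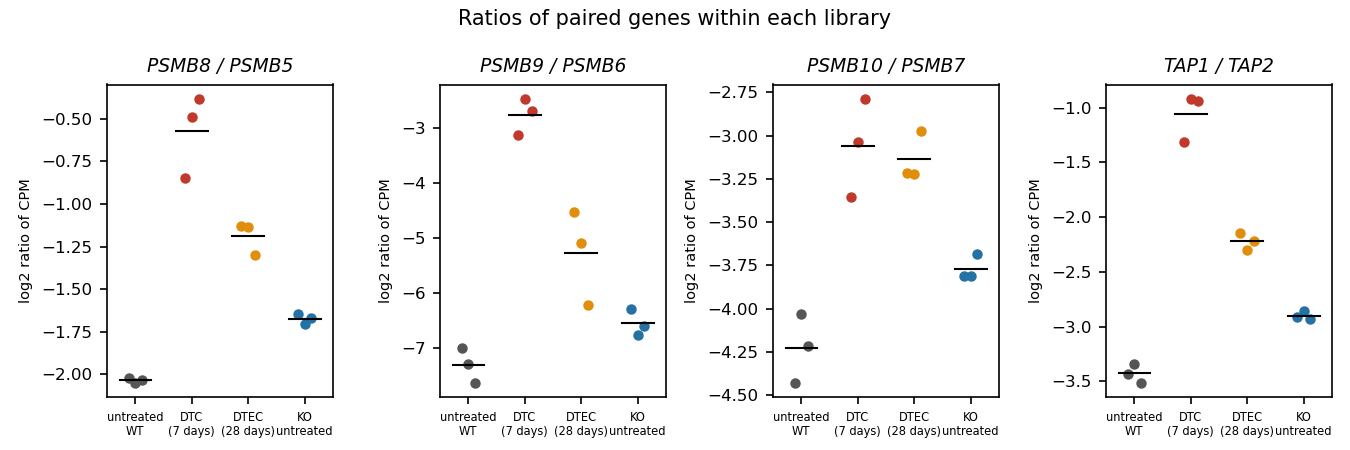
Log2 ratio of CPM of each inducible subunit to the constitutive subunit it replaces, and of TAP1 to TAP2, in each library (points) with group means (lines). For PSMB8, PSMB9 and TAP1 the 4 groups stand apart in the order untreated WT, KO, DTEC, DTC, and for PSMB10 the DTC and DTEC libraries overlap.

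Ratios were taken within each library, after adding a pseudocount of 0.1 CPM. The ratio of PSMB8 to PSMB5 was 0.246, 0.241 and 0.244 in untreated WT, 0.555, 0.713 and 0.767 in DTC, 0.458, 0.456 and 0.406 in DTEC and 0.320, 0.307 and 0.314 in KO. Relative to untreated WT this was 2.76-fold higher in DTC, 1.80-fold in DTEC and 1.29-fold in KO. PSMB9 to PSMB6 was 0.00778, 0.00636 and 0.00501 in untreated WT, 0.115, 0.182 and 0.156 in DTC, 0.0435, 0.0293 and 0.0135 in DTEC and 0.0128, 0.00921 and 0.0103 in KO. Its rise was 23.6-fold in DTC, 4.10-fold in DTEC and 1.70-fold in KO. PSMB9 is scarce in untreated WT, and with a pseudocount of 2 CPM its log2 difference in DTC was 3.49 in place of 4.56. TAP1 to TAP2 was 0.0926, 0.0989 and 0.0874 in untreated WT, 0.401, 0.529 and 0.521 in DTC, 0.226, 0.203 and 0.215 in DTEC and 0.133, 0.138 and 0.131 in KO. PSMB10 to PSMB7 stood 2.25-fold higher than untreated in DTC, 2.13-fold in DTEC and 1.37-fold in KO. Of 16 comparisons of these 4 ratios, 15 had groups that did not overlap, and each gave an exact permutation p of 0.1 (two-sided), which is the floor for groups of 3 and cannot pass 0.05. The exception was PSMB10 to PSMB7 between DTEC and DTC (log2 difference -0.08, exact permutation p 0.7).

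The constitutive subunits moved as well. PSMB5 and PSMB6 fell in DTC by 0.49 and 0.76 on the log2 scale (adjusted p 0.000443 and 4.08e-05), the PSMB5 call being lost with library totals alone or upper-quartile scaling. PSMB7 was at log2 -0.30 in DTC (adjusted p 0.0281), a call that held in 7 of 19 alternatives and turned positive with library totals alone. In DTEC PSMB5, PSMB6 and PSMB7 fell by 0.64, 0.70 and 0.67 on the log2 scale (adjusted p 7.52e-05, 0.000160 and 0.000188). PSMB10 rose in DTC (log2 0.92, adjusted p 0.000926) and was not called in DTEC (log2 0.43, adjusted p 0.0811), where it was called in 7 of 19 alternatives with adjusted p from 0.00556 to 0.290.

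The rest of the pathway was followed in 8 lists of 70 genes, 58 of them testable. Called higher and lower were 25 and 19 in DTC, 23 and 21 in DTEC, 15 and 21 in DTEC against DTC, and 3 and 2 in KO. Over all 17115 genes the shares called higher and lower were 34% and 33.3% in DTC, 26% and 26.3% in DTEC, 28.8% and 26.6% in DTEC against DTC, and 2.76% and 1.55% in KO, so the 19 of 58 lower in DTC are near the share of all genes. The median log2 fold change of the 58 was 0.18 in DTC, 0.02 in DTEC, -0.08 between the drug-treated groups and 0.00 in KO.

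**Figure D4:**
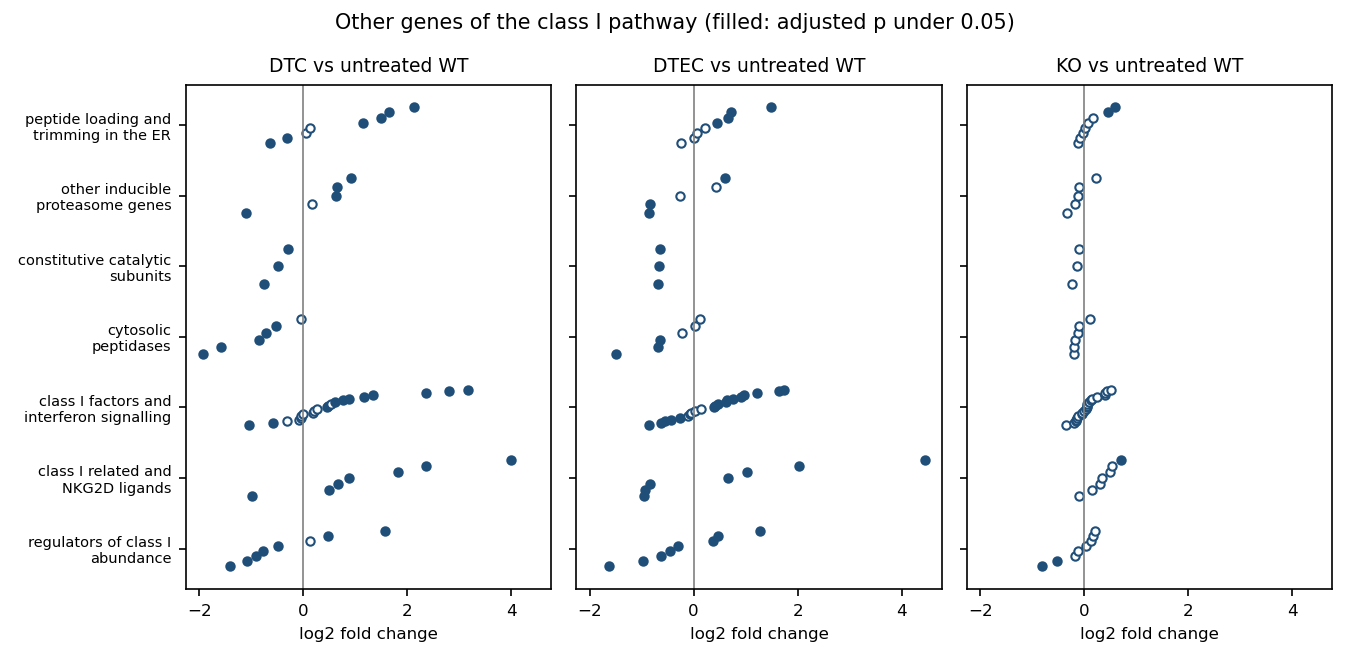
Log2 fold changes (horizontal axis) of the tested genes of 7 lists of the class I pathway in DTC, DTEC and KO against untreated WT, 1 point per gene, filled where the adjusted p was under 0.05. None of the 8 genes of the interferon list could be tested, so that list is not drawn.

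Of 8 peptide loading and trimming genes, 4 rose and 2 fell in DTC, and 4 rose and 0 fell in DTEC, where 67.3% and 52.3% of all genes were called, so the number called is near that of all genes. Their median log2 fold change was 0.64 in DTC and 0.33 in DTEC, against 0.06 and 0.02 over all genes. TAPBP, or tapasin, which holds the heavy chain at the transporter, had 75.9, 88.5 and 88.5 CPM untreated against 263, 256 and 278 CPM in DTC (log2 1.66, adjusted p 2.08e-09) and 145, 137 and 134 CPM in DTEC (log2 0.72, adjusted p 1.39e-05). TAPBPL, a tapasin relative that edits peptides, rose by 2.13 on the log2 scale in DTC and by 1.49 in DTEC (adjusted p 8.80e-09 and 8.14e-07). ERAP2, an aminopeptidase that trims peptides, rose by 1.49 and 0.66 on that scale (adjusted p 9.01e-08 and 0.000357). TAPBP and TAPBPL were also the loading genes called higher in KO (log2 0.47, adjusted p 0.00871, and log2 0.59, adjusted p 0.0254), in 17 and 15 of 19 alternatives. From DTC to DTEC 2 were higher and 4 lower, among them TAPBP (log2 -0.94) and ERAP1, the partner of ERAP2 (log2 -0.70).

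Among 5 further proteasome genes (PSMB10, PSME1, PSME2, PSME3 and POMP), 3 rose and 1, PSME3, fell in DTC. Of all genes 34% were called higher there and 33.3% lower. Their median log2 fold change was 0.62 in DTC and -0.26 in DTEC. PSME1, a subunit of the PA28 activator, rose in DTC (log2 0.66, adjusted p 0.00545), though 1 DTC library lay within the untreated range, and in DTEC (log2 0.61, adjusted p 0.0123). PSME3, a nuclear proteasome activator, fell by 1.11 and 0.84 on the log2 scale in DTC and DTEC (adjusted p 5.05e-07 and 1.74e-05), and POMP, an assembly chaperone, fell in DTEC (log2 -0.86, adjusted p 0.00130). Of 6 cytosolic peptidases, which shorten or destroy free peptides, 5 fell in DTC, 3 fell in DTEC and 4 were higher in DTEC than in DTC, against 33.3%, 26.3% and 28.8% of all genes. Their median log2 fold change was -0.79 in DTC and -0.44 in DTEC, and 0.47 in DTEC against DTC. THOP1 had 96.2, 129 and 117 CPM untreated against 24.5, 30.8 and 34.3 CPM in DTC (log2 -1.94, adjusted p 2.85e-07), and BLMH fell by 1.59 on that scale (adjusted p 4.71e-09).

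**Figure D5:**
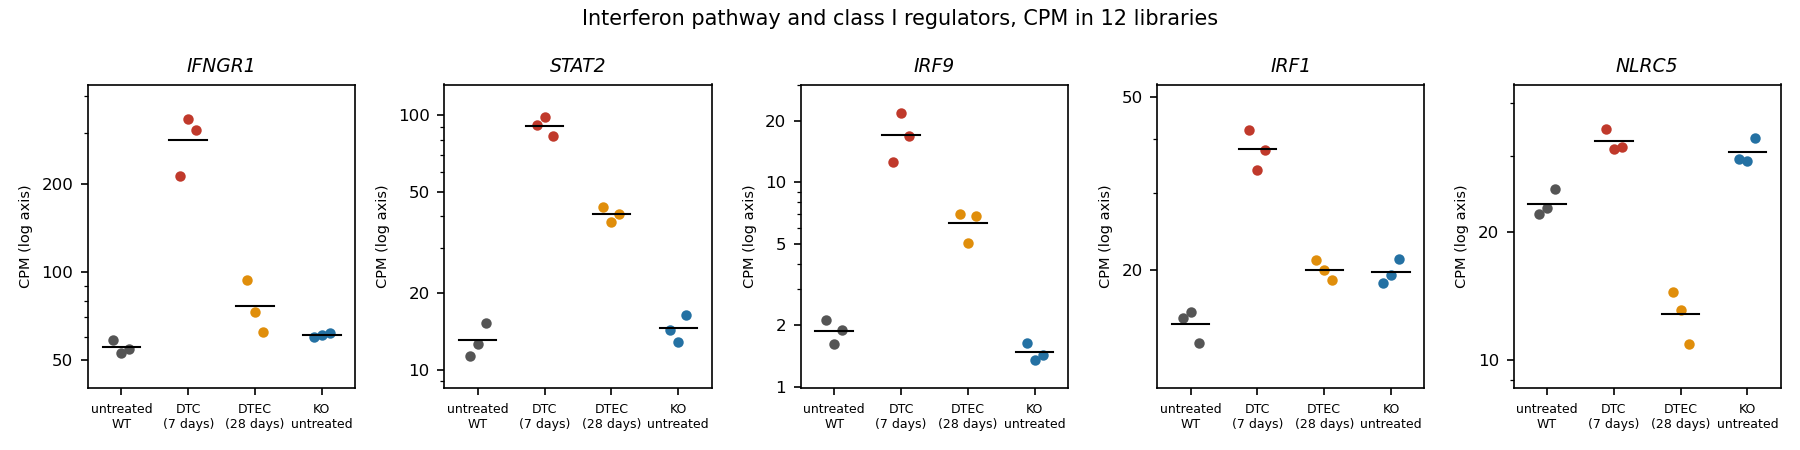
CPM of 5 interferon pathway and class I regulator genes in each library (points; vertical log axis) with group means (lines). NLRC5 is above untreated WT in DTC and below it in DTEC, while STAT2, IRF9, IRF1 and IFNGR1 are above it in both.

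Of 21 transcription factor and interferon signalling genes, 10 rose and 2 fell in DTC, and 11 rose and 5 fell in DTEC. Of all genes 67.3% were called in DTC, a larger share than in this list, and 52.3% in DTEC. The list's median log2 fold change was 0.46 in DTC and 0.40 in DTEC. IRF9 and STAT2, parts of the complex that binds interferon response elements, rose most in both. IRF9 had 2.12, 1.62 and 1.90 CPM untreated against 12.6, 21.8 and 16.8 CPM in DTC (log2 3.18, adjusted p 1.29e-08) and 7.00, 5.08 and 6.82 CPM in DTEC (log2 1.74, adjusted p 1.12e-05). STAT2 had 11.3, 12.6 and 15.2 CPM untreated against 91.8, 98.7 and 82.7 CPM in DTC (log2 2.81, adjusted p 5.85e-10) and 43.7, 38.0 and 40.9 CPM in DTEC (log2 1.65, adjusted p 2.19e-07). IFNGR1, the ligand-binding chain of the interferon gamma receptor, had 58.6, 52.7 and 54.5 CPM untreated against 213, 333 and 306 CPM in DTC (log2 2.36, adjusted p 2.24e-08).

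IRF1, an activator of class I and inducible proteasome genes, had 15.5, 16.1 and 13.6 CPM untreated, 42.0, 34.0 and 37.8 CPM in DTC (log2 1.33, adjusted p 1.03e-07) and 20.1 ± 1.06 CPM in DTEC (mean ± SD, n = 3; log2 0.41, adjusted p 0.00597). NLRC5, the class I transactivator, had 22.0, 22.7 and 25.1 CPM untreated, 34.7, 31.3 and 31.5 CPM in DTC (log2 0.48, adjusted p 0.00177) and 14.5, 13.1 and 10.9 CPM in DTEC, below untreated WT (log2 -0.86, adjusted p 2.95e-05) and below DTC (log2 -1.34, adjusted p 4.26e-07). In KO, IRF1 (log2 0.40, adjusted p 0.0612) and NLRC5 (log2 0.40, adjusted p 0.0679) were above untreated WT in all 3 libraries and were not called. They were called in 6 and 7 of 19 alternatives, DESeq2 and the fit of the compared libraries alone among them, with adjusted p from 0.00713 to 0.232 for IRF1 and from 0.00354 to 0.222 for NLRC5. Interferon genes were scarce: 7 of 8 had at most 3 counts in every library, which is 0.0824 to 0.115 CPM, and IFNG, IFNA1 and IFNK had 0 counts in all 12. IFNE had 8 to 9 counts in the DTC libraries and 2 to 4 in untreated WT, too few to test, and such limits cover counting error only.

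Of 7 tested class I relatives and ligands of the activating receptor NKG2D, 6 rose and 1 fell in DTC, and 4 rose and 3 fell in DTEC. Of all genes 34% were called higher and 33.3% lower in DTC, and 26% and 26.3% in DTEC, and the list's median log2 fold change was 0.88 and 0.66. ULBP1, an NKG2D ligand, had 0.747, 0.438 and 0.692 CPM untreated, 13.3, 7.89 and 9.06 CPM in DTC (log2 3.99, adjusted p 3.84e-08) and 16.3, 15.1 and 10.1 CPM in DTEC (log2 4.45, adjusted p 5.93e-08). MR1, which presents vitamin metabolites to MAIT cells, rose in DTC (log2 2.35, adjusted p 4.88e-09), in DTEC (log2 2.03, adjusted p 7.16e-08) and in KO (log2 0.70, adjusted p 0.0117, called in 17 of 19 alternatives). MICA and MICB, stress-induced NKG2D ligands, were lower in DTEC than in DTC by 1.81 and 1.33 on the log2 scale (adjusted p 6.25e-06 and 2.08e-07). HLA-G, FCGRT, CD1D and AZGP1 were too low to test.

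Of 8 genes known to regulate class I abundance, 2 rose and 5 fell in DTC, and 3 rose and 5 fell in DTEC. The shares of all genes were 34% higher and 33.3% lower in DTC, and 26% and 26.3% in DTEC, and the list's median log2 fold change was -0.63 and -0.38. SUSD6, part of a complex that sends class I molecules for degradation, rose by 1.57 and 1.28 on the log2 scale in DTC and DTEC (adjusted p 1.68e-08 and 4.00e-07), while WWP2, the ubiquitin ligase of that complex, fell by 1.41 in DTC (adjusted p 4.00e-08). SUZ12 fell by 1.09 in DTC (adjusted p 1.22e-05) and EZH2 by 0.97 in DTEC (adjusted p 2.25e-06), both members of a Polycomb complex that silences class I genes in some tumours. MARCHF4, a membrane ubiquitin ligase, fell in DTEC (log2 -1.63, adjusted p 2.14e-06) and in KO (log2 -0.81, adjusted p 0.0105, called in 14 of 19 alternatives). EED, another Polycomb member, also fell in KO (log2 -0.52, adjusted p 0.00865, called in 17 of 19).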

How the data were processed

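Libraries were made with the TruSeq Stranded mRNA kit and sequenced as 101 bp pairs, per the labels' protocols. The deposited values are expected counts, estimated reads per gene without scaling. The submitters' processing notes name RSEM 1.3.1, Bowtie2 2.5.2, DESeq2 1.40.2 and GRCh38, without their roles, and the annotation release and strand setting are not given in the sources used here. Symbols were found for 62700 of 62754 identifiers. Coordinates and principal transcripts are from GENCODE 29.

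Values were rounded and fitted with edgeR 4.0.16 in R 4.3.3: filterByExpr by group (17115 genes kept), TMM scaling, all 12 libraries with 1 mean per group, robust quasi-likelihood F tests and Benjamini-Hochberg adjustment over all tested genes, with calls at an adjusted p under 0.05. The procedure was checked on simulated counts in which few genes changed and each gene had the same dispersion in every group. That check does not cover data with as many changed genes as DTC, or with a spread that differs between groups. Ratios used a pseudocount of 0.1 CPM and exact permutation tests. Alternatives were DESeq2 1.42.0, 3 other scalings, no count filter, the compared libraries alone, a replicate block, and each library left out. No 2 libraries of a group agreed within sampling noise.

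The 9 genes and the lists were chosen with earlier results of these data known. The rule for named genes was the 9 genes, TDP1, PSMB10, PSMB5, PSMB6, PSMB7, NLRC5, IRF1, a further gene not reported here, from each list and comparison up to 3 called genes with the largest absolute change (not all are printed), and the 5 genes most like the 9.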

Additional observations from a re-analysis of the deposited data

Results flagged for a closer look

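The change from untreated WT differed between 7 and 28 days of erlotinib for all 9 genes, by edgeR's test of DTEC against DTC. The log2 difference was -3.11 for HLA-B, -1.82 for HLA-C, -0.74 for HLA-E, -2.65 for HLA-F and -2.31 for B2M. It was -1.70 for TAP1, -0.56 for TAP2, -0.80 for PSMB8 and -2.45 for PSMB9. For TAP2 it added to a fall already present at 7 days, and for the other 8 genes it ran against a rise. Each of the 9 was called in all 19 alternatives.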

How the results depend on the processing

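Of the 9 genes, the 8 called higher in DTC and the 9 called lower in DTEC against DTC were called in all 19 alternatives. The 1 called lower in DTC became 0 with library totals alone. In DTEC the 4 called higher became 7 with library totals alone, 6 with the compared libraries alone, 5 with upper-quartile scaling, without a count filter or with DESeq2, and 4 to 7 with single libraries left out (7 without DTC replicate 1). In KO the 0 called higher became 1 with library totals alone, 2 without a count filter, 6 with the compared libraries alone, 1 with DESeq2, and 0 to 2 with single libraries left out (2 without DTC replicate 1, 1 without DTEC replicate 1 or 3). The cause was not tested. Same-numbered libraries of different groups were at most weakly alike. Their deviations from group means correlated from -0.030 to 0.179, over 0.1 in 4 of 18 pairs. For libraries with different numbers the range was -0.187 to 0.118, and whether the numbers mark a pairing was not tested. With a replicate block, 8 of the 9 genes were called higher and 1 lower in DTC, and 4 and 1 in DTEC. It left 0 and 9 in DTEC against DTC, and 0 and 0 in KO. With the block PSMB10 in DTEC was called (adjusted p 0.0391). Over all genes, calls in KO were 738, against 2656 with the compared libraries alone, 1520 without DTC replicate 1 and 1149 with DESeq2. They were 1147 without a filter, 887 with the replicate block, 321 to 426 without an untreated WT library and 337 to 360 without a KO library.

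With library totals alone, the median over all genes shifted by 0.35 in DTC, 0.17 in DTEC, -0.19 between them and 0.07 in KO, and calls in the higher direction went from 50.5% to 68.4%, 49.7% to 63.75%, 51.9% to 37.4% and 64.1% to 78.8%. Upper-quartile scaling gave 64.97% in DTC and 38.7% in DTEC against DTC. With a pseudocount of 2 CPM the log2 difference of PSMB9 to PSMB6 was 3.49 in DTC and 0.43 in KO. With single libraries left out, PSMB10 to PSMB7 in DTEC against DTC ran from -0.227 to 0.0561, TAP1 in DTEC from -0.0447 to 0.108, TDP1 in DTEC from -0.00997 to 0.0853 and PSMB6 in DTEC against DTC from -0.102 to 0.128. PSMB6 there was -0.113 with upper-quartile scaling and -0.126 with library totals alone, and PSMB7 in DTC was 0.0566 with library totals alone. Low counts limit HLA-F and PSMB9 in untreated WT.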

Other observations

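Over the 12 libraries, the genes most like the mean standardised profile of the 9 genes were IL22RA2, a soluble inhibitor of interleukin 22 (Pearson r 0.990), SAA1, an acute phase protein (0.989), ADAMTS14, a procollagen peptidase (0.987), IFNGR1 (0.987) and ESPN, an actin-bundling protein (0.987). The libraries fall into 4 groups, so these values describe likeness only. SAA1 had 2.12, 2.77 and 1.59 CPM in untreated WT, 50.2, 52.4 and 61.8 CPM in DTC, 7.89, 3.82 and 2.06 CPM in DTEC and 4.18, 3.46 and 5.28 CPM in KO. In SAA1, as in HLA-B, replicate 1 was the highest of the DTEC libraries. IL22RA2 was scarce, with 0 counts in untreated WT and 0.507, 0.883 and 0.762 CPM in DTC.

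Against the mean profile of the other 8 genes, HLA-C (0.979) and HLA-B (0.979) had the highest r and HLA-E (0.825) the lowest of the 8 that rose in DTC, while TAP2 had r -0.385.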
